A study of Homo sapiens with 4 samples.

Results

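Gene expression of 2 human B-cell lymphoma lines was compared across 4 oligonucleotide arrays, which are all the arrays of the series. Of these, Jeko-1 comes from a mantle cell lymphoma and Raji from a Burkitt lymphoma. Each line was represented by its parental culture, not treated with rituximab, and by a subline made resistant to rituximab, an antibody against the B-cell surface protein CD20 (Jeko-1/R and Raji/R). The comparison set the 2 Jeko-1 arrays against the 2 Raji arrays, with the resistance state as the pairing. Members were all probe sets with exactly 1 gene symbol, 41091 of 54613 on the array. Each gene was read from its brightest probe set, and 15575 of 19775 genes had at least 1 array at or above a floor, the pooled median signal of 77.5, and were tested. Each disease was represented by 1 established line and each state by 1 array. The arrays of a line share their ancestor and nothing in the labels describes separate cultures, so the p-values measure only the spread between these arrays. Line, disease, culture and array handling cannot be told apart in this design.

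Mantle cell lymphoma and Burkitt lymphoma both arise from B cells but are thought to resemble different stages of B-cell life. In mantle cell lymphoma a translocation brings CCND1, which encodes the cell cycle regulator cyclin D1, under the control of the immunoglobulin heavy chain locus, and most cases also express the developmental transcription factor SOX11. Burkitt lymphoma carries a translocation of MYC and resembles cells of the germinal centre, the lymph node structure in which B cells divide and mutate their antibody genes; BCL6 is the master repressor of that stage. Raji also carries Epstein-Barr virus (EBV), whose latent proteins are known to switch on host genes in B cells, many of them through the transcription factor NF-kB.

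The array signals were scaled to nearly equal trimmed means, from 494 to 497. Raji/R stood apart in its low signals, since 55.6% of its probe sets lay at or above the floor against 48.0% to 48.3% on the other 3 arrays. CD20 itself (MS4A1) was bright in both lines, with a signal of 24891 and 23236 on the Jeko-1 arrays and 11514 and 11698 on the Raji arrays. The B-cell receptor chains CD79A and CD79B and the B-lineage factor PAX5 were above the floor on every array. Markers of other cell types were present in part, given here for parental then resistant Jeko-1 and then for Raji likewise. Of 18 T-cell markers on the array 5, 5, 6 and 9 reached the floor, of 12 NK-cell markers 1, 1, 4 and 7, of 20 myeloid markers 5, 7, 5 and 10, of 11 erythroid and megakaryocyte markers 2, 3, 6 and 7, and of 18 epithelial and stromal markers 5, 5, 9 and 9. CD3E, CD8A, CD14, LYZ and MPO lay below it on all 4 arrays. Some other members were bright in 1 line, the T-cell receptor chain CD247 in Jeko-1 (2185 and 2212 against 218 and 147), and in Raji the myeloid lectin CLEC7A (2246 and 1535 against 32.1 and 20.6), the collagen gene COL1A1 (1916 and 1465 against 97.7 and 37.7) and the actin gene ACTA2 (1312 and 1186 against 68.5 and 58.1). Their part in the results was not tested.

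Throughout, a difference is the log2 signal of Jeko-1 minus that of Raji, averaged over both resistance states, so that negative values are higher in Raji. Signals below the floor were raised to it, and a fold with 1 line below the floor on both arrays is therefore a lower bound, written "at least". A gene was called when the limma test gave an adjusted p under 0.05 and the difference reached 2-fold. By this rule 6821 genes were called, 43.8% of those tested. Of these, 3110 were higher in Jeko-1 (20.0% of genes tested) and 3711 were higher in Raji (23.8%). Among the 9219 genes at or above the floor on all 4 arrays, 54.1% were called, 23.1% higher in Jeko-1 and 31.0% higher in Raji. Tested by probe set rather than by gene, 21.6% of 29669 probe sets were higher in Jeko-1 and 19.5% in Raji. The ranges of the lines did not overlap for 72.0% of all genes tested and for 6819 of the 6821 called. The order turned among larger differences, where 759 genes were at least 8-fold higher in Jeko-1 (4.87%) and 335 were at least 8-fold higher in Raji (2.15%). The other line lay below the floor on both arrays for 572 of the genes called higher in Jeko-1 and for 601 of those called higher in Raji. Leaving out an array also removed the resistance state from the fit, which then had the line as its only term. With either Jeko-1 array left out in this way no gene was called, the spread then coming from the Raji pair alone, but 6059 and 6074 genes had an unadjusted p under 0.05 in limma.

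The difference between the lines was similar before and after resistance, though larger on the resistant arrays. It reached 2-fold in either direction for 42.5% of genes on the parental and 50.8% on the resistant arrays, with medians of -0.06 and -0.34. It was taken once from the parental and once from the resistant arrays, which share no array but come from the same lines, and the values correlated with a Pearson r of 0.926 and a Spearman rho of 0.855 over the 15575 genes. Of the called genes, 5721 differed 2-fold or more the same way in both states, and 1100 did so in 1 state only. Only 6 genes differed 2-fold or more in opposite directions in the 2 states. By comparison, the change from parental to resistant cells had an SD over genes of 0.26 in Jeko-1 and 0.57 in Raji, against 1.56 for the difference between the parental lines.

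**Figure D1:**
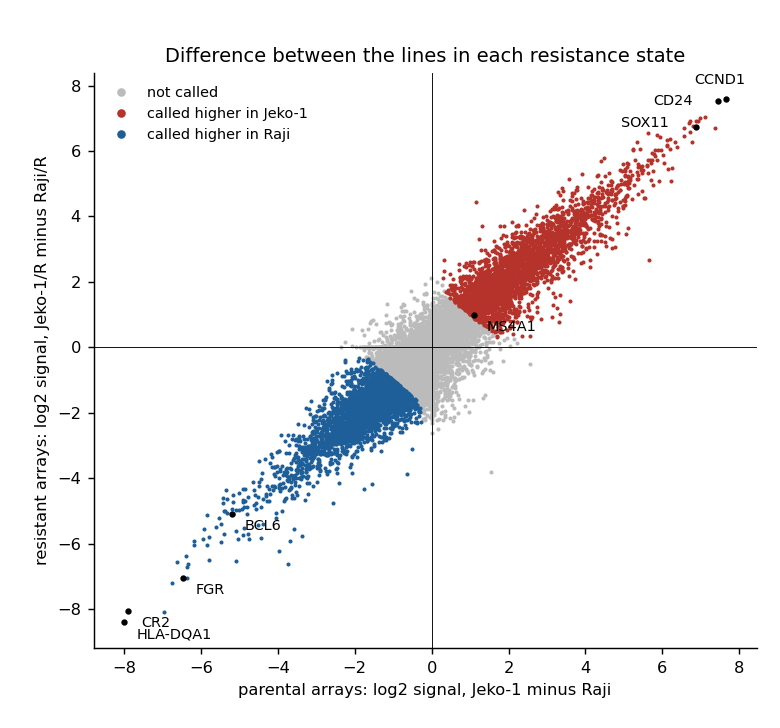
Difference between the lines (log2 signal, Jeko-1 minus Raji) on the parental arrays (horizontal axis) and on the resistant arrays (vertical axis), with 1 point per gene; red and blue points are the genes called higher in Jeko-1 and in Raji, grey points were not called, and genes left out of naming by rule are not drawn. The points follow the diagonal (Pearson r 0.926), with CCND1, CD24 and SOX11 at one end and HLA-DQA1 and CR2 at the other.

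The genes that define mantle cell lymphoma were high in both Jeko-1 arrays and below the floor in both Raji arrays. CCND1 had a signal of 15834 and 14973 on Jeko-1 and Jeko-1/R and of 6.44 and 35.1 on Raji and Raji/R, at least 199-fold higher in Jeko-1 (log2 difference 7.63 after flooring). SOX11 read 9180 and 8159 in Jeko-1 against 6.15 and 14.6 in Raji, a difference of at least 112-fold (log2 6.80 after flooring). For neither gene did the lines come near to overlapping. Where both arrays of a line are raised to the floor they add no spread to the test, so no error is given for such genes; with the values as deposited the adjusted p of both genes in limma was 0.041. Of 18 tested genes on a list of mantle cell lymphoma genes, 12 were higher in Jeko-1, 1 was higher in Raji and 5 were not called, with a median difference of 2.56 where the median of all genes was -0.29.

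Other members of that list followed. HDGFL3, a relative of a growth factor, read 2011 and 2197 against 2.03 and 38.7, at least 27.1-fold higher in Jeko-1. The receptor tyrosine kinase-like protein ROR1, an antibody target in this disease, was 18.2-fold higher (1543 and 1728 against 99.1 and 81.1). MSI2, an RNA-binding protein of stem cells, was 9.73-fold higher, and the cannabinoid receptor gene CNR1 8.75-fold. The actin-binding genes DBN1 and CNN3 differed by 4.60-fold and at least 7.59-fold. The exception was the phosphatase gene PTPN6, which was 2.39-fold higher in Raji, although its sign turned with the arrays centred on ribosomal proteins (log2 0.17). CD5, a surface marker of most mantle cell lymphomas, was near or below the floor everywhere: 21 and 51.5 in Jeko-1, 47.4 and 121 in Raji (log2 -0.32, adjusted p 0.36). On this marker the data do not set Jeko-1 apart from Raji.

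**Figure D2:**
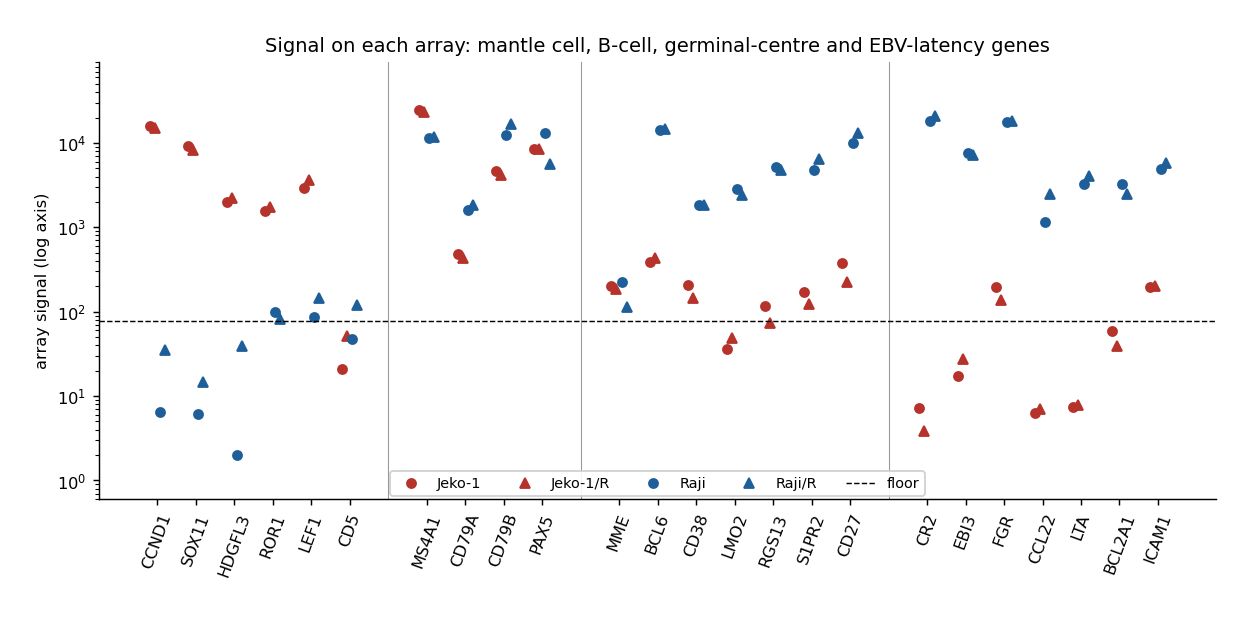
Array signal (log axis) of mantle cell, B-cell, germinal-centre and EBV-latency genes on each of the 4 arrays; circles are parental and triangles resistant, red Jeko-1 and blue Raji, and the dashed line is the floor of 77.5. Of the genes drawn, mantle cell genes other than CD5 separate with Jeko-1 on top, and germinal-centre genes other than MME with Raji on top. The EBV-latency genes drawn also have Raji on top, and the B-cell genes drawn are above the floor on every array. The genes were picked from the lists. The 5 germinal-centre and 4 EBV-latency genes called higher in Jeko-1 are not drawn, nor is PTPN6, a mantle cell gene higher in Raji.

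Germinal-centre genes were mostly higher in Raji, with some clear exceptions. Of 26 tested Burkitt and germinal-centre genes, 15 were higher in Raji, 5 were higher in Jeko-1 and 6 were not called, with a median of -1.38. BCL6 read 392 and 432 on the Jeko-1 arrays against 14398 and 14566 on the Raji arrays, 35.2-fold higher in Raji (log2 -5.14, SE 0.24, adjusted p 2.9e-05). The transcriptional cofactor LMO2 was below the floor in Jeko-1 (36.4 and 48.6) and read 2830 and 2388 in Raji, at least 33.5-fold higher. S1PR2, the sphingosine receptor that holds B cells inside the germinal centre, was 37.6-fold higher in Raji, at 4758 and 6449 against 173 and 125. Each of these genes separated the lines on all 4 arrays.

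RGS13, a brake on chemokine signalling in germinal-centre cells, was 52.2-fold higher in Raji, and CD27, a receptor of antigen-experienced B cells, was 39.2-fold higher. The surface enzyme CD38 was 10.6-fold higher and the protease inhibitor gene SERPINA9, a germinal-centre marker, 14.8-fold. ID3, an inhibitor of the E protein TCF3 that is often mutated in Burkitt lymphoma, read 4179 and 4281 in Raji against 1249 and 946 in Jeko-1 (log2 -1.96). TCF3 itself was 1.82-fold higher in Raji and so fell short of the 2-fold rule.

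MME, which encodes CD10, the usual surface marker of Burkitt lymphoma, did not separate the lines. Its signal was 201 and 187 in Jeko-1 and 223 and 113 in Raji (log2 0.29, adjusted p 0.45), and the ranges overlapped. The 5 listed genes higher in Jeko-1 included strong ones. BACH2, a repressor that keeps B cells from becoming plasma cells, read 4838 and 5101 in Jeko-1 and 4.06 and 61.3 in Raji, at least 64.1-fold higher in Jeko-1. TCL1A was 5.29-fold, STMN1 3.0-fold, GNA13 2.96-fold and PAG1 2.49-fold higher in Jeko-1. MYC was also higher in the mantle cell line, at 24145 and 20460 against 6681 and 6028 (log2 1.81, adjusted p 8.3e-04), as was its relative MYCL. Of 33 tested genes of the MYC network and its targets, 10 were higher in Jeko-1 and 13 in Raji, with a median of -0.74. With the arrays centred on ribosomal proteins, 11 were higher in Jeko-1 and 0 in Raji (median 0.68).

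Host genes known to be induced in EBV latency were mostly higher in Raji. Of 30 tested, 24 (80.0%) were higher in Raji, 4 were higher in Jeko-1 and 2 were not called, with a median of -2.29. CR2, the complement receptor that EBV uses to enter B cells, read 7.17 and 3.84 in Jeko-1 against 18402 and 20604 in Raji, at least 251-fold higher (log2 -7.97 after flooring; adjusted p 0.041 in limma with the values as deposited). EBI3, a cytokine subunit first found as an EBV-induced gene, read 17.2 and 27.2 against 7634 and 7211, at least 95.8-fold higher in Raji. The Src-family kinase FGR was 109-fold higher, at 17572 and 18331 in Raji against 197 and 139 in Jeko-1. These are among the widest separations in the data set, and no Jeko-1 array came near a Raji array.

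Further along the same list, the costimulatory receptor SLAMF1 was at least 55.0-fold higher in Raji and the cytokine lymphotoxin alpha (LTA) at least 47.0-fold. The survival gene BCL2A1 was at least 36.4-fold, the adhesion ligand ICAM1 26.3-fold and the chemokine CCL22 at least 21.9-fold higher. FCER2, which encodes CD23, was higher by at least 3.33-fold, but only on a low signal of 158 and 423. The 4 members that were higher in Jeko-1 were MARCKS, a membrane and actin regulator (7287 and 6812 against 7.98 and 34.5), the oxysterol receptor GPR183, also first found as an EBV-induced gene (33.3-fold), the adhesion receptor CD44 (4.93-fold) and IER3 (5.41-fold). For CD44 this rests on 1 probe set, since its 7 others lay between -0.67 and 0.43.

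The NF-kB pathway was divided among its own subunits. Of 32 tested members and targets, 21 were higher in Raji and 6 in Jeko-1, with a median of -1.73; 13 of these genes are also on the EBV-latency list. The subunits RELA, RELB and NFKB1 were higher in Raji (log2 -1.88, -1.35 and -1.58; RELB turned to 0.08 under ribosomal centring), while REL, the subunit most used in B cells, was 9.46-fold higher in Jeko-1 at 3071 and 3244 against 401 and 278. The 4 other probe sets of REL ranged from -0.21 to 2.18, below the 3.24 of its brightest. The inhibitor NFKBIA was 4.8-fold higher in Raji and the nuclear inhibitor NFKBIZ 6.27-fold higher in Jeko-1. Among targets, lymphotoxin beta (LTB) was 104-fold higher in Raji, at 7797 and 11052 against 94.1 and 84.6. IRF4, a factor that drives B-cell activation and is itself an NF-kB target, ran the other way at 5515 and 6385 in Jeko-1 against 175 and 332 in Raji. Without Raji/R, and with the line as the only term, the NF-kB count in favour of Raji was 13 and the EBV-latency count 18, while the medians were -1.74 and -2.39.

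Promoter sequences of both lists were searched for the NF-kB consensus, the DNA element bound by this factor, within 250 bases before the RefSeq start (assembly GRCh38.p14, both strands). The element was present in 5.05% of 27305 promoters, in 5.90% of the tested genes and in 6.85% of the genes called higher in Raji. It was present in 9 of 26 matched members of the NF-kB list (34.6%) and in 5 of the 17 that were called higher in Raji (29.4%), a share no higher than in the list as a whole. In the EBV-latency list 4 of 23 matched members held it (17.4%), and so did 4 of the 18 called higher in Raji (22.2%). All 8 elements found in the 6 members of either list that were higher in Raji are shown, because they let the element be compared across genes of very different fold. The element is in capitals and each sequence is written along the strand of its gene.
LTB, chr6:31582477-31582536, minus strand: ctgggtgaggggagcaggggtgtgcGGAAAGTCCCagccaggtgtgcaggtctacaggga
CCL22, chr16:57358573-57358632, plus strand: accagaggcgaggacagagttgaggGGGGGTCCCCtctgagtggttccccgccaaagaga
CXCL10, chr4:76023640-76023699, minus strand: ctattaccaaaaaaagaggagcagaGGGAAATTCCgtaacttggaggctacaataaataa
CXCL10, chr4:76023585-76023644, minus strand: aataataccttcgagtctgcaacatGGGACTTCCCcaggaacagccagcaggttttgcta
NFKBIA, chr14:35404796-35404855, minus strand: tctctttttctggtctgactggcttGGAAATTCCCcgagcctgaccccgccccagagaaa
TNFAIP3, chr6:137867167-137867226, plus strand: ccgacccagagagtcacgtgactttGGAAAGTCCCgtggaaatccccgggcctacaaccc
TNFAIP3, chr6:137867179-137867238, plus strand: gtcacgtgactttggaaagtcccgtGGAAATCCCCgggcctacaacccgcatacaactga
NFKB1, chr4:102501285-102501344, plus strand: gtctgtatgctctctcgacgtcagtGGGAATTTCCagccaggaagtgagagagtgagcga
The element before LTB, which differed by 104-fold, has the same letters as the first of the pair before TNFAIP3, an NF-kB inhibitor, which differed by a log2 of -1.64. The elements before NFKBIA and NFKB1 are reverse complements of each other, and these genes differed by -2.26 and -1.58. In LTB 76 bases lie between the element and the start, and in NFKB1 39. A match is a description of the letters, and binding was not measured.

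Surface molecules of B cells were mostly higher in Raji. Of 36 tested, 24 were higher in Raji and 4 in Jeko-1, with a median of -1.68. CD24, a surface protein of immature and naive B cells, was the clearest exception, at 13554 and 14361 in Jeko-1 against 7.63 and 13.4 in Raji, at least 180-fold. CD20 was 2.07-fold higher in Jeko-1 (log2 1.05, SE 0.24, adjusted p 0.0094 in limma), and its 3 other probe sets differed by 1.69 to 2.01. CD79A and CD79B were higher in Raji (log2 -1.92 and -1.71). TNFRSF17, the BCMA receptor of plasma cells, was 12.6-fold higher in Jeko-1. The count in favour of Raji was 12 without Raji/R and without the state term (median -1.57), and also 12 after adjustment on gene span, described further on.

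Antigen presentation genes leaned to Raji, and HLA-DQA1 stood out. It read 22.3 and 29.5 in Jeko-1 and 19941 and 25727 in Raji, at least 292-fold higher. Of 19 tested class II genes, 13 were higher in Raji and 2 in Jeko-1 (median -1.55), and of 19 class I genes 13 and 2 (median -1.32). The peptide transporter subunits TAP1 and TAP2 were 5.84-fold and 5.0-fold higher in Raji, and the loading factor TAPBP 6.05-fold. The peptide-trimming enzyme ERAP2 ran the other way, 17.6-fold higher in Jeko-1 at 1859 and 1918 against 149 and 68.6. The class II regulator CIITA did not differ by the rule (log2 0.42, adjusted p 0.23). HLA genes vary in sequence between people, so that probes may read alleles unequally; this was not tested. After adjustment on gene span the counts in favour of Raji fell to 5 for class II and 4 for class I.

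Of 24 tested B-cell transcription factors 7 were higher in each line, with a median of 0.02; under ribosomal centring 9 were higher in Jeko-1 and 1 in Raji (median 1.45). PAX5 was alike in size, at 8394 and 8458 in Jeko-1 and 13252 and 5628 in Raji (log2 -0.04, adjusted p 0.94). LEF1, a WNT pathway factor of immature lymphocytes, was 29.0-fold higher in Jeko-1, at 2898 and 3670 against 85.8 and 147. KLF2, a quiescence and homing factor, was 12.9-fold higher in Jeko-1. RUNX3 was 13.6-fold higher in Raji, at 15573 and 17264 against 1288 and 1136, and SPIB was 3.26-fold higher in Raji. Plasma-cell genes were also mixed, with 5 of 15 higher in Jeko-1 and 7 in Raji; CREB3L2, a secretory pathway factor, was 10.2-fold higher in Jeko-1 and the joining chain JCHAIN 5.30-fold higher in Raji.

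Some protein families had members that differed in opposite directions. Of 28 small families examined, 12 had at least 1 member called higher in each line. Since 20.0% and 23.8% of all genes were called, and how often other small groups of genes hold both was not tested, the count is a description. Among the D-type cyclins, which drive cells out of G1 with their partner kinases, Jeko-1 had CCND1 and Raji had CCND3, at 7766 and 9320 against 735 and 652 (12.3-fold), with CCND2 low in both but higher in Raji. Among the Src-family kinases YES1 was at least 16.4-fold higher in Jeko-1, and FGR, FYN (7.70-fold) and LCK (3.68-fold) were higher in Raji. Among the Fc receptor-like proteins, FCRL5 was at least 15.9-fold higher in Jeko-1. FCRL1, FCRL2, FCRL3, FCRL4 and FCRLB were higher in Raji, FCRL3 by at least 65.8-fold.

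Divided families were also found in survival, signalling and chromatin families. BCL2 itself was 3.45-fold higher in Jeko-1, at 5147 and 4794 against 1643 and 1260, whereas BCL2L1, BCL2L2 and BCL2A1 were higher in Raji and MCL1 was not called. Among RGS proteins, which switch off G-protein signalling, RGS2 was 17.6-fold higher in Jeko-1 and RGS13, RGS14, RGS16 and RGS19 were higher in Raji. TRAF5 was higher in Jeko-1 and TRAF1, TRAF4 and TRAF6 in Raji; among the receptors of the survival factor BAFF and its relative APRIL, TNFRSF17 was higher in Jeko-1, TNFRSF13B in Raji, and TNFRSF13C was not called. IKZF2 and IKZF5 were higher in Jeko-1 and IKZF3 and IKZF4 in Raji, HDAC9 was higher in Jeko-1 and HDAC7 in Raji, and the glycolytic enzyme HK2 was 2.35-fold higher in Jeko-1 while HK1 was 3.43-fold higher in Raji. MEF2A against MEF2C and ANXA2 against ANXA4 and ANXA6 complete the 12. For MEF2C and ANXA2 the sign turned when probe sets that can match several transcripts were left out, so those divisions rest on the choice of probe set. The IKZF, HDAC and hexokinase divisions also rest on the brightest probe set. The other probe sets read -0.42 for IKZF2, 0.11 for IKZF5, -0.37 for HDAC7 and 0.73 to 0.77 for HK2. With the arrays centred on ribosomal proteins 7 families were divided, and BCL2L2, FCRLB, IKZF3, RGS16, TNFRSF13B and TRAF6 lay between a log2 of 0.01 and 0.38, on the Jeko-1 side, without being called. The SLAM receptors were not divided: 5 of 7 tested were higher in Raji and 2 were not called.

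Regulators of G1 and of the p53 pathway differed in both directions. CDKN1C, an inhibitor of cyclin-dependent kinases, was at least 78.4-fold higher in Jeko-1 (6211 and 5945 against 52.9 and 8.18), as was the retinoblastoma gene RB1 by 6.11-fold. CDK6 was below the floor in Jeko-1 and read 673 and 486 in Raji. CDKN2A, an inhibitor often deleted in lymphoma, was present in both and 5.89-fold higher in Raji, at 2227 and 2484 against 423 and 378. The DNA damage kinase ATM was 21.7-fold higher in Jeko-1, at 4314 and 4745 against 180 and 241, while DDB2 and the death receptor FAS were higher in Raji. FAS read 30.7 and 79.4 in Jeko-1 against 2366 and 2415 in Raji. Of 22 tested G1 regulators 5 were higher in Jeko-1 (22.7%) and 9 in Raji (40.9%). Of 26 genes of the p53 pathway 6 (23.1%) and 11 (42.3%) were, where the shares of all genes were 20.0% and 23.8%. With the arrays centred on ribosomal proteins the counts turned to 9 and 2 for G1 regulators and 11 and 1 for the p53 pathway.

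Cell death genes included some of the widest gaps. BCL2L11, which encodes the death-promoting protein BIM, read 4.90 and 2.12 in Jeko-1 and 5591 and 5127 in Raji, at least 69.1-fold higher in Raji. BNIP3, a mitophagy protein, ran the other way at 12777 and 9044 in Jeko-1 against 12.5 and 87.2 in Raji, 131-fold after flooring. The death-promoting BIK was 14.3-fold higher in Raji and BAX 5.14-fold. Of the 21 tested BCL2-family genes, 3 were higher in Jeko-1 and 11 in Raji (median -1.15). The caspase inhibitors XIAP and BIRC2 were 6.27-fold and 7.86-fold higher in Jeko-1, and of 25 death receptors and caspases 6 were called in each direction (10 in Jeko-1 and 1 in Raji under ribosomal centring).

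Mitotic genes were mostly higher in Jeko-1. Of 34 tested, 22 were higher in Jeko-1, 2 were higher in Raji and 10 were not called, with a median of 1.52. ASPM, a spindle-pole protein, read 7360 and 8057 in Jeko-1 against 73.6 and 11.2 in Raji, at least 99.4-fold. The motor proteins KIF14 and CENPE were at least 43.9-fold and at least 35.3-fold higher, and the kinetochore protein NUF2 22.8-fold. AURKB and PTTG1 were the 2 higher in Raji, by 3.0-fold and 2.5-fold, PTTG1 turning to a log2 of 0.10 under ribosomal centring. Of 43 DNA replication genes 8 were higher in Jeko-1 and 6 in Raji (median -0.22), but under ribosomal centring 19 and 0 were (median 1.21). Adjustment on gene span gave 21 mitotic genes higher in Jeko-1 and 0 higher in Raji. ASPM is read by 2 further probe sets, with differences of 3.91 and 4.41, less than the 6.63 of its brightest probe set.

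Of 36 tested genes of B-cell receptor signalling, 9 were higher in Jeko-1 (25%) and 8 in Raji (22.2%), near the shares of all genes (median -0.08), and 13 and 1 under ribosomal centring. The adaptor BLNK was 4.74-fold higher in Jeko-1 (13217 and 11985 against 2883 and 2443) and the transcription factor NFATC2 at least 19.8-fold, while the lipid kinase PIK3CD was 4.49-fold higher in Raji. Of 28 homing receptors and chemokines 5 were higher in Jeko-1 and 11 in Raji (median -0.54), and of 37 integrins and adhesion genes 8 and 16 (median -0.76). Among homing receptors the chemokine receptor CCR2 was at least 24.7-fold higher in Jeko-1, and the decoy chemokine receptor ACKR3 was 16.5-fold higher in Raji at 19442 and 17476 against 1377 and 911. Among integrins ITGA4 was 6.64-fold higher in Jeko-1, and ITGAL, a subunit of LFA-1, was 16.6-fold higher in Raji. The tetraspanin CD9 was at least 32.4-fold higher in Jeko-1 and its relatives CD82 and TSPAN33 were 46.6-fold and 31.8-fold higher in Raji.

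Of 46 tested interferon-stimulated genes, 20 were higher in Jeko-1 and 9 in Raji, with a median of 0.44. IFITM1, a membrane protein that blocks virus entry, read 12235 and 7555 in Jeko-1 against 202 and 223 in Raji (45.3-fold). IFITM2, MX2 and EPSTI1 were 17.8-fold, 19.6-fold and 14.6-fold higher in Jeko-1. On the Raji side ISG20, BST2, APOL6 and IFI6 were 5.73-fold, 7.31-fold, 5.80-fold and 5.36-fold higher. Without Raji/R and the state term 7 were higher in Jeko-1 and 6 in Raji, at a median of 0.37. Among the 23 members at or above the floor on all 4 arrays 7 were higher in Jeko-1 and 9 in Raji (median -0.29).

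**Figure D3:**
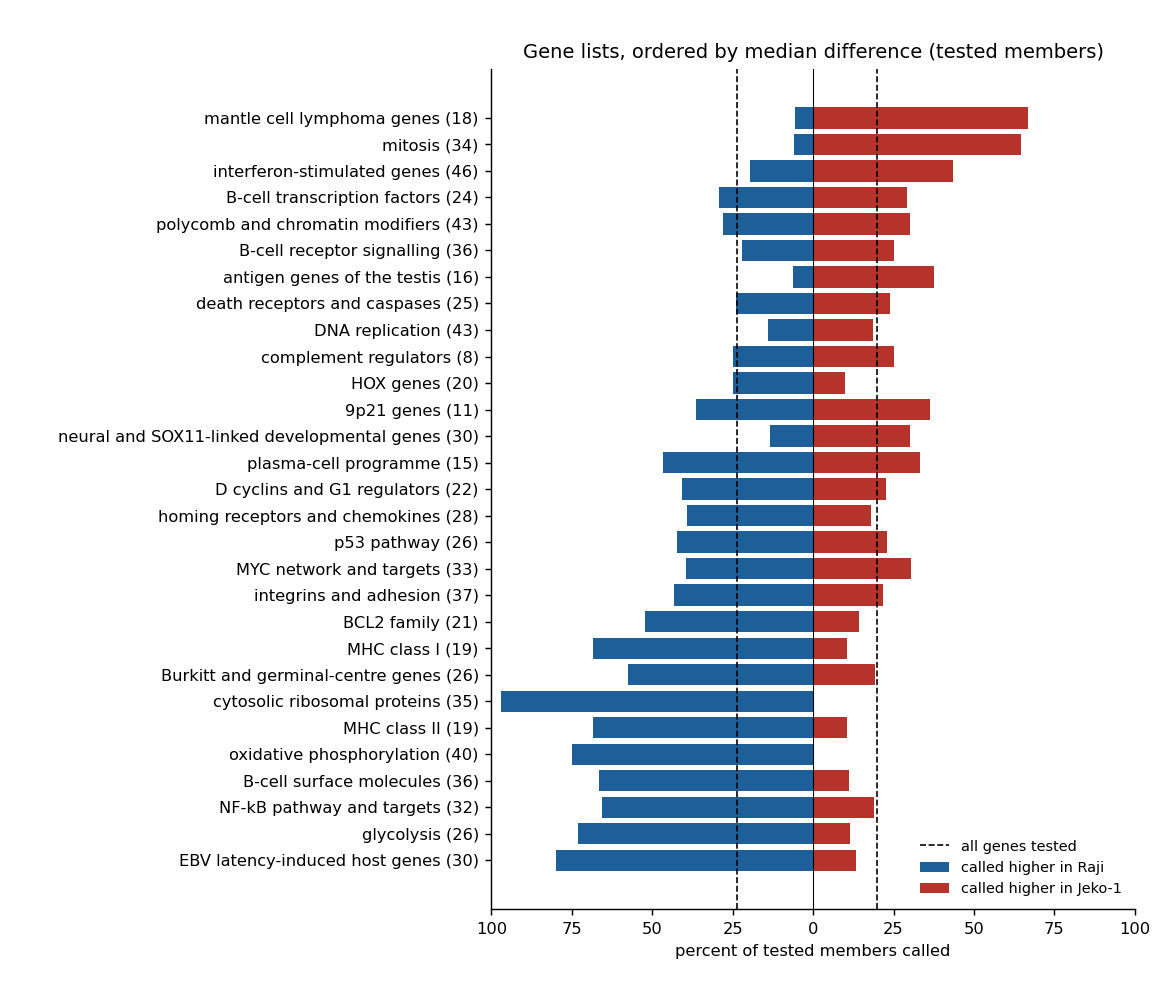
Percent of tested members of each gene list called higher in Raji (blue, leftward) and in Jeko-1 (red, rightward), ordered by the median difference, with the number of tested members in parentheses; dashed lines are the percent of all tested genes called in each direction, 23.8 and 20.0. Mantle cell and mitotic genes reach furthest toward Jeko-1, and ribosomal protein and EBV-latency genes furthest toward Raji.

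Genes of glycolysis, oxidative phosphorylation and the ribosome were mostly higher in Raji. Of 26 tested glycolysis genes, 19 were higher in Raji and 3 in Jeko-1 (median -2.03). The glucose transporter SLC2A1 was 15.7-fold higher in Raji (4226 and 7192 against 429 and 287), the isomerase GPI 12.6-fold, the aldolase ALDOC 27.9-fold and PFKFB4, a regulator of glycolytic flux, 36.2-fold. Without Raji/R and the state term 5 glycolysis genes were called higher in Raji, at a median of -1.82. After adjustment on span or on mean signal 6 were, and under ribosomal centring 1 was higher in Raji and 4 in Jeko-1 (median -0.60). Of 40 tested subunits of oxidative phosphorylation, 30 were higher in Raji and 0 in Jeko-1 (median -1.66), CYC1 by 13.6-fold and NDUFV1 by 13-fold. The other probe set of NDUFV1 read -0.25. Under ribosomal centring 3 subunits were higher in Raji and 3 in Jeko-1 (median -0.24). Of 35 ribosomal proteins, 34 were higher in Raji (median -1.42), with RPL8 at 78754 and 116626 against 23340 and 21860.

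The ribosomal difference depended on the scaling. Its median was -1.11 on the parental and -1.74 on the resistant arrays, and quantile normalization of the arrays left 0 of the 35 called. Adjusting the difference on mean signal, or on gene span, likewise left 0 called, and oxidative phosphorylation then had 13 and 21 members higher in Raji. With the arrays centred instead on ribosomal proteins, 4506 genes were called higher in Jeko-1 and 419 in Raji, or 8.51% of calls against 54.4% without that centring. Under that centring the counts for Jeko-1 and Raji were 5 and 8 for germinal-centre genes, 4 and 11 for EBV latency, 5 and 7 for NF-kB, 7 and 7 for surface molecules, 2 and 2 for class II, 4 and 2 for class I, 5 and 3 for the BCL2 family, and 25 and 0 for mitosis. The same centring gave 8 and 1 for plasma-cell genes, 8 and 4 for homing receptors and chemokines, and 8 and 7 for integrins and adhesion. Which line has more calls therefore depended on what was held equal.

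The difference between the lines followed the length of the gene in the genome. Among the 9215 genes with a known span that were at or above the floor on all 4 arrays, the median difference was -0.91 in the shortest bin of 5 equal bins (median span 4.85 kb) and rose over -0.60, -0.29 and 0.13 to 0.39 in the longest bin (135 kb). In the shortest bin 46.4% were higher in Raji and 9.5% in Jeko-1, and in the longest 21% and 36.8%. The Spearman rho was 0.28 over these genes, which are not independent replicates, and it was 0.25 on the parental and 0.30 on the resistant arrays. The change from parental to resistant cells showed no such slope in Jeko-1 and a smaller, opposite one in Raji, from 0.16 in the shortest to -0.15 in the longest bin. RNA quality was not checked and its part in this pattern was not tested.

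**Figure D4:**
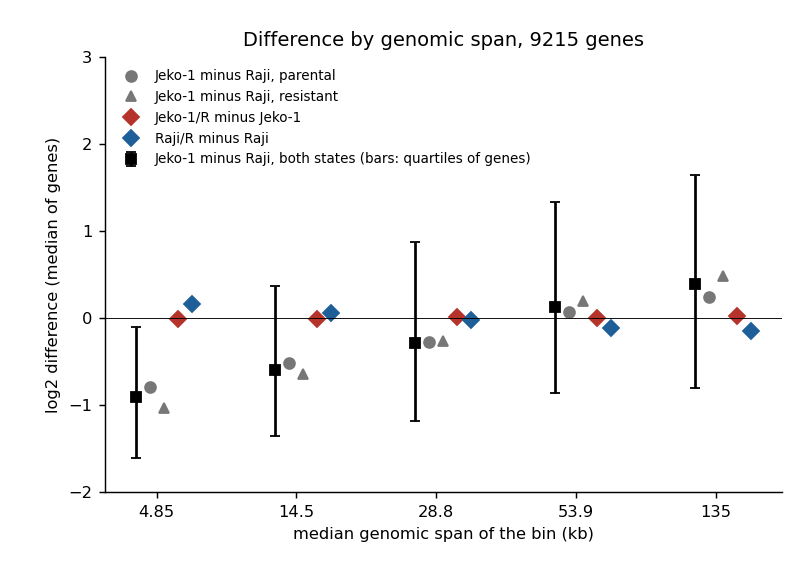
Median log2 difference of genes in 5 equal bins of genomic span (horizontal axis, median span of the bin in kb); black squares give Jeko-1 minus Raji over both states with the quartiles of genes, grey symbols the same on parental and resistant arrays, and diamonds the change from parental to resistant cells within Jeko-1 (red) and Raji (blue). The difference between the lines rises from -0.91 to 0.39 with span, while the changes within a line stay between -0.15 and 0.16.

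Lists of long and short genes were therefore read against that slope. After a smooth adjustment on span, chosen after seeing the data, 12 mantle cell genes were higher in Jeko-1, and 12 germinal-centre, 18 EBV-latency and 16 NF-kB genes were higher in Raji. The genes named ZNF with a number, which encode zinc finger proteins, were higher in Jeko-1 in 171 of 423 (40.4%) and in Raji in 60 (14.2%). Other ubiquitous genes with wide differences toward Jeko-1 were the nuclear RNA MALAT1 (45.4-fold, 30690 and 30634 against 779 and 586) and the RNA-binding protein gene TIA1 (36.1-fold). For TIA1 the other probe sets ranged from 0.19 to 5.09. Over all genes, 82.9% of the 7923 other probe sets of called genes shared the sign and 48.4% shared the call. Of 126 called genes named here that had other tested probe sets, 29 had none that differed 2-fold or more in the same direction, and their values rest on the brightest probe set: BCL2L1, BCL2L2, CCND2, CCR2, CD44, CD59, CD9, HDAC7, HK2, IKZF2, IKZF5, IRF4, KLF2, LEF1, LMO2, MAP2, MEF2C, MYCL, NDUFV1, NFKBIA, NOL9, PAG1, PFKFB4, PIK3CD, RGS14, SNAP25, STMN1, TAPBP and TRAF6.

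By chromosome, the lean to Raji was widest on chromosome 22, where 33.7% of tested genes were higher in Raji and 7.05% in Jeko-1, and on chromosome 19, with 34.8% and 11.8%. Chromosome 13 leaned furthest to Jeko-1, with 37.5% higher in Jeko-1 and 11.8% in Raji. Chromosomes 17, 11 and 16 leaned to Raji and 18 and 4 to Jeko-1. Copy number was not measured, and the part of gene span in these shares was not tested.

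Neighbouring genes that all differed 2-fold or more the same way, at least 7 in a row in RefSeq order, formed 18 runs, 14 higher in Raji and 4 in Jeko-1. On chromosome 12 a run of 8 genes from CHFR through ZNF605, ZNF26, ZNF84, ZNF140, ZNF891 and ZNF10 to ZNF268 had a median difference of 3.36. ZNF84 read 2103 and 2192 in Jeko-1 against 123 and 115 in Raji, and ZNF268 read 1024 and 1015 against 4.71 and 38.7. On chromosome 14 a run of 8 genes held the T-cell leukaemia genes TCL6, TCL1B and TCL1A, with a median of 2.16; TCL1B was 20.0-fold higher in Jeko-1, at 6231 and 6281 against 370 and 264. On chromosome 11 a run from CEP295 to FUT4, with the DNA repair gene MRE11, had a median of 3.0.

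The longest run was 13 genes on chromosome 1 from NOL9 to PARK7, higher in Raji with a median of -1.51. It holds TNFRSF9, the costimulatory receptor 4-1BB, at least 11-fold higher in Raji (1014 and 721 against 41.7 and 13.6), beside broadly expressed genes such as PARK7 (4.09-fold). A further run on chromosome 1 joined ID3 and E2F2. The number of runs moved with the settings, from 7 to 74 over the planned scalings, floors and filters, so that single runs are descriptions.

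**Figure D5:**
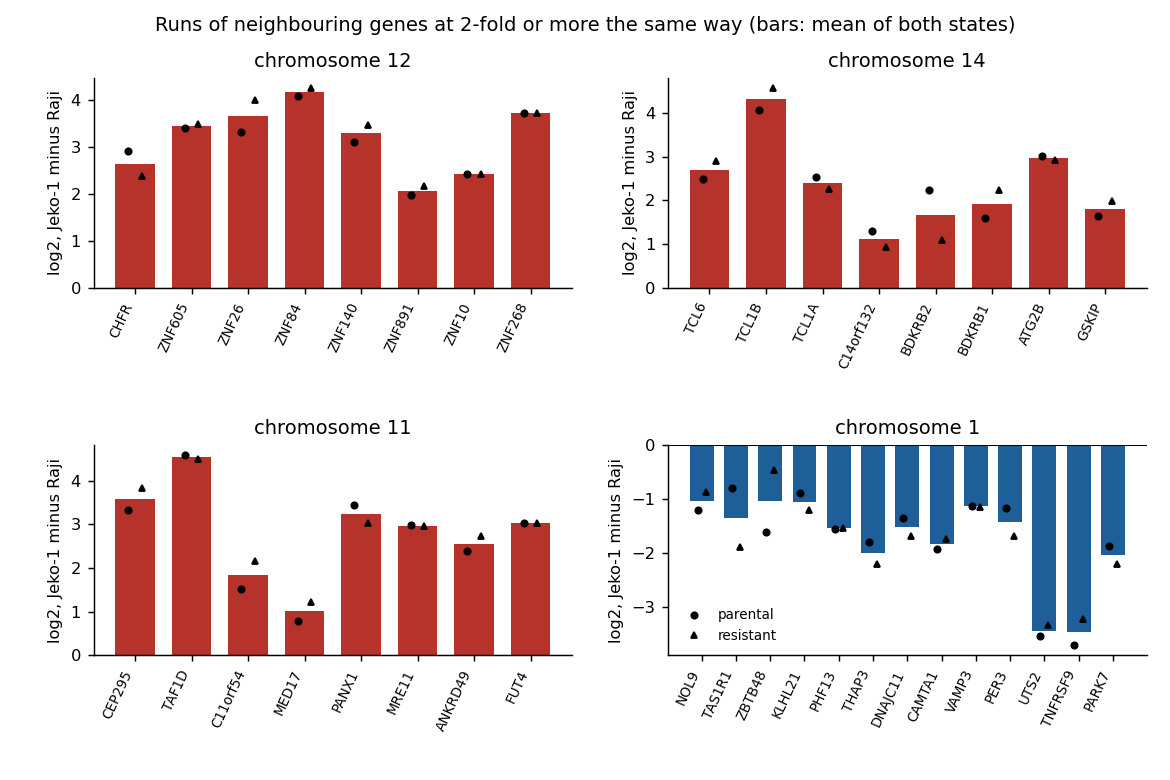
Log2 difference (Jeko-1 minus Raji, vertical axis) of each gene in genome order for 4 runs of neighbouring genes; bars are the mean of both states, circles the parental and triangles the resistant arrays, red higher in Jeko-1 and blue higher in Raji. The zinc finger run on chromosome 12 and the TCL1 run on chromosome 14 lie above 0 in both states, and the run from NOL9 to PARK7 lies below 0 in both states.

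A few genes silent in most adult tissues were present in 1 line. Of 34 antigen genes of the testis on the array, 16 were tested, and of these 6 were higher in Jeko-1 and 1 in Raji. Only 1 of the 16 reached the floor on all 4 arrays, so a member could enter the count through 1 line alone. With no filter on low genes, 3 of the 34 were called higher in Jeko-1 and 1 in Raji. CTAG2 (5065 and 4527 against 10.7 and 18.3) and MAGEB2 (3597 and 3526 against 87.3 and 4.37) were at least 61.8-fold and 43.3-fold higher in Jeko-1, SSX1 at least 32.4-fold and PRAME 29.3-fold. ACTL8 was at least 4.38-fold higher in Raji. HOX genes pattern the body axis and are used in blood progenitors. Of 20 tested HOX genes and cofactors, 2 were higher in Jeko-1 (10%) and 5 in Raji (25%). Among all genes tested the shares were 20.0% and 23.8%, so the Raji share was near that of all genes. Under ribosomal centring the HOX counts were 3 and 0. HOXB3, HOXB4 and HOXB7 were 4.06-fold, 3.78-fold and 4.93-fold higher in Raji, and the cofactor PBX4 4.37-fold, while HOXC6 and HOXC11 were 5.74-fold and 2.05-fold higher in Jeko-1. Within those clusters HOXB5, HOXB9, HOXC4, HOXC5, HOXC8 and HOXC10 were not called, at -0.30, -0.61, -0.85, 0.22, -0.17 and -0.53.

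Developmental and chromatin genes also differed singly. Among 30 tested neural and SOX11-linked developmental genes, 9 were higher in Jeko-1 (30.0%) and 4 in Raji (13.3%). Among all genes tested the shares were 20.0% and 23.8%. The median of the list was -0.39, but 0.19 among the 8 members at or above the floor on all 4 arrays. MAP2 and SNAP25, cytoskeletal and synaptic genes of neurons, were at least 9.31-fold and at least 9.09-fold higher in Jeko-1, and MARCKSL1 was 17.9-fold higher in Raji (35250 and 37414 against 2042 and 2008), the reverse of its relative MARCKS. Of 43 tested polycomb and chromatin genes 13 were higher in Jeko-1 and 12 in Raji (median -0.05), and 16 and 0 under ribosomal centring. The DNA methyltransferase DNMT3A and the demethylases TET1 and TET2 were 15.3-fold, at least 10.7-fold and 12.9-fold higher in Jeko-1. The other probe sets of TET2 read 0.32 to 1.16. The polycomb subunits PCGF2, CBX6 and CBX7 were 7.76-fold, 4.91-fold and 4.78-fold higher in Raji. Of the complement regulators, which protect cells against antibody-directed lysis, CD46 was 4.34-fold higher in Jeko-1 and CD59 4.49-fold higher in Raji.

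Among genes with no list, the widest differences between lines with signal on all 4 arrays and no opposing probe set included, toward Jeko-1, the kinase HIPK2 (72.3-fold), the arginine synthesis enzyme ASS1 (68.1-fold) and the RAS-association protein gene RASSF6 (56.9-fold). Toward Raji they included the chitinase-like protein CHI3L2 (92.5-fold, 20800 and 25573 against 253 and 246), the cytokine receptor IL21R (61.6-fold) and the NADPH oxidase subunit NCF1 (40.1-fold). Where the other line was below the floor, GLUL, glutamine synthetase, read 8209 and 7468 in Jeko-1 against 43.7 and 7.58 in Raji. The NOTCH target HES1 read 8350 and 11486 in Raji against 71.2 and 46.6 in Jeko-1, and the decoy receptor IL1R2 9625 and 21173 against 54.0 and 9.98.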

How the data were processed

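Total RNA was extracted with Trizol and biotin-labelled cRNA was made from it, per the labels' protocols. The authors deposited log2 signals of 54613 probe sets; the submitters' processing notes name MAS5. That the base is 2 was inferred from equal trimmed means, and the MAS5 version and detection calls are not given in the sources used here. MAS5 applies a single factor per array, which leaves any level-dependent difference between arrays in place. Of the probe sets 41091 had 1 symbol, 1801 several and 11721 none; 41037 matched the RefSeq table (GRCh38.p14), from which order, span and promoters were taken. Groups came from the labels. Values were floored at a log2 of 6.28. limma 3.58.1 (R 4.3.3) was fitted with line and resistance state, with empirical Bayes moderation. The two-sided p was Benjamini-Hochberg adjusted over 15575 genes. The resistance state pairs Jeko-1 with Raji and Jeko-1/R with Raji/R. The fit leaves 1 residual degree of freedom, the change of the line difference with state. The simulated data held 15575 genes, of which 200 were changed. The fit called 46.0% of those changed by a log2 of 1.5, 100% of those changed by 3, and 0 unchanged genes. These rates cannot be carried over to the real arrays, where 43.8% of genes were called. There only 10 genes on the Jeko-1 side and 27 on the Raji side reached 2-fold without a call. An exact test over 4 arrays was not used. Gene lists, families and members were chosen with earlier results of these data known. Named genes were CCND1, SOX11, MS4A1, the cell type markers, the 12 largest calls per line with all arrays above the floor and 12 with the other line below it, up to 4 called members per list and direction, identity lists, divided families and runs; XIST, TSIX, Y-linked genes, variable segments and genes with an opposing probe set were left out, and the text names a part. Outside this rule MYC, MCL1, CIITA, RELA, NFKB1, CD3E, CD8A, CD14, LYZ, MPO, HOXB5, HOXB9, HOXC4, HOXC5, HOXC8 and HOXC10 were named after their values were seen. Sequences are RefSeq's; of the tested genes 12348 had a promoter there. Alternatives covered scaling, floor, filter, probe set, pairing and each array left out; 3 were added after seeing the data. Python 3.11.15 was used.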

Additional observations from a re-analysis of the deposited data

Results flagged for a closer look

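The 6 genes named here differed 2-fold or more between the lines in opposite directions before and after resistance, with signals that changed in both lines for some of them; the difference between states was not tested, as there was 1 array per line and state. HSPA6, an inducible heat shock chaperone, was higher in Jeko-1 among parental cells (log2 1.54) and higher in Raji/R among resistant cells (log2 -3.81), with signals of 467 and 127 on the parental and resistant Jeko-1 arrays and of 160 and 1777 on the Raji arrays. ATOH8 turned from 1.33 to -1.54, PCOLCE from 1.38 to -1.46 (282 and 94.6 in Jeko-1 and Jeko-1/R, 109 and 260 in Raji and Raji/R) and SLC46A1 from 1.08 to -1.62. TNFAIP8L2 turned from -1.18 to 1.0 and ZNF579 from -1.15 to 1.32. Apart from HSPA6 these signals were at most 329. No other value was examined in groups large enough for an outlier test.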

How the results depend on the processing

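Counts of calls moved with the settings more than single directions did. Genes called higher in Jeko-1 numbered 1945 with no floor and 667 with no filter on low genes, and genes called higher in Raji 2393 under a floor raised to the 75th percentile, 2434 without any floor and 629 with no filter. The added adjustments on gene span, on mean signal and on ribosomal proteins gave 2165, 2241 and 419 genes higher in Raji. Leaving out each array in turn gave 0 to 2588 genes higher in Jeko-1 and 0 to 3413 higher in Raji, 2292 of them without Raji/R; these fits also drop the resistance state, so 2 choices change at once, and the lone array of a line is then assumed to vary like the other line. Without the replicate block for resistance state 2999 and 3503 genes were called. Lists with more members higher in Raji numbered 17, with 0 to 18 when arrays were left out and 3 under ribosomal centring. Divided families numbered 12, with 0 to 10 when arrays were left out, 0 with no filter and 7 under ribosomal centring. The 18 runs became 87 at a length of 5, 1 at a length of 11, 74 with no floor, 7 with the mean of probe sets, 36 with all 4 arrays above the floor, 14 to 29 when arrays were left out, and 7, 8 and 58 under the 3 added settings. CCND1 ranged from 7.59 to 7.67 and SOX11 from 6.72 to 6.89 when arrays were left out, with an adjusted p of 0.06 and 0.062 without a Jeko-1 array. Without probe sets that can match several transcripts ANXA2 was -0.08 and MEF2C 0.20. Under ribosomal centring BCL2L2 was 0.01, FCRLB 0.01, IKZF3 0.30, NOL9 0.39, PTPN6 0.17, PTTG1 0.10, RELB 0.08, RGS16 0.03, TNFRSF13B 0.38 and TRAF6 0.28, none of them called. Values near the floor, single arrays per state and unknown RNA quality limit all counts.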
